A study of Mus musculus with 11 samples.

Results

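The expression of 36 genes of fatty acid uptake, activation and oxidation was followed in mouse muscle stem cells, the satellite cells that lie along the muscle fibre. The genes were chosen by symbol for their known roles in lipid uptake, lipolysis, β-oxidation and PPAR control, and all 36 of 36 were among the 48709 genes of the count table. The cells came from pectoral, forelimb and hindlimb muscles of Tg:Pax7-nGFP mice on the C57BL/6 strain, in which a nuclear green fluorescent protein marks cells that use the Pax7 promoter, and all 3 groups carried this transgene. The labels give no age or sex. T0 cells (3 libraries) were fixed inside whole muscle with 0.5% paraformaldehyde for 1 h at 4°C. T3 cells (4 libraries) were first isolated in the standard way and sorted, and then fixed with 0.5% paraformaldehyde for 30 min on ice. T5 cells (4 libraries) had a further 2 h at 37°C and were fixed like T3 cells. The protocol in the labels puts those 2 h on dissected muscle in DMEM before the isolation, whereas the series description puts them after it, so what the T5 cells met is not settled. T5 libraries that share a letter in their names were added up and counted as 1 replicate, which gave n = 3 for T0, n = 4 for T3 and n = 2 for T5 (A and B).

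As background, lipoprotein lipase (Lpl) frees fatty acids from circulating triglyceride, CD36 and fatty acid binding proteins take them in and carry them, and long-chain acyl-CoA synthetases (Acsl genes) activate them. The carnitine shuttle (Cpt1, Slc25a20, Cpt2) moves the acyl chain into the mitochondrial matrix, where dehydrogenases, hydratases and thiolases shorten it and pass electrons to the electron transfer flavoprotein (Etf genes). Peroxisome proliferator-activated receptors (PPARs) are nuclear receptors that control many of these genes, and quiescent satellite cells are known for reliance on fatty acid oxidation.

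Library totals ran from 49078859 to 102347035 counts. T0 replicate 3 stood apart for these genes: it was the lowest of the T0 replicates in 29 of the 36, and lay more than 2-fold below both others in Cpt1a, Acadm, Eci1 and Pnpla2. Ribosomal RNA genes took 18.4% of its counts, against 4.14% and 12.5% in the other T0 libraries, 6.45 to 12.6% in T3 and 12 to 20.3% in T5. The identity of the cells was checked with 12 satellite cell markers, given like all levels in CPM (counts scaled to 1000000 per library, with TMM factors). Their sum was 6640 to 9890 CPM in the T0 replicates, and lower in T3 (2930 to 3600) and T5 (2100 to 2170). Pax7, the defining marker, stood at 3140 to 4440 CPM in T0, whereas T3 had 249 to 400 and T5 306 to 325. From T0 to T3 7 of the 12 fell, 2 rose (Sdc4 by 2.65 and Vcam1 by 0.60 on the log2 scale) and 3 did not pass the test. Nothing in the labels ties replicates to different animals, and the spread behind each p-value is that between these libraries, which may be technical. In bulk samples fewer cells of a type and less RNA per cell cannot be told apart, and the different fixation (whole muscle for T0, sorted cells for T3) cannot be told apart from the isolation. The counts do not separate strands: Tsix had 1.004 to 1.014 times the count of Xist, its antisense partner. Of the 36 genes, 12 have an exon that overlaps an exon of another gene and are therefore uncertain: Acadvl, Acsl1, Acsl3, Acsl5, Cpt1b, Crat, Etfb, Etfdh, Fabp3, Hadha, Lipe and Ucp2.

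The 250 bases before the RefSeq start (GRCm38.p6) are shown for 4 genes on which the results turn, chosen after their values were seen: Acadm fell furthest from T0 to T3, Acsl3 rose furthest, and Mlycd and Ucp2 changed in T5. They lie at chr3:153944644-153944893 on the minus strand (Acadm), chr1:78657575-78657824 on the plus strand (Acsl3), chr8:119394644-119394893 on the plus strand (Mlycd) and chr7:100493108-100493357 on the plus strand (Ucp2), and are written 5′ to 3′ along the gene. Capitals mark any match, on either strand, to the 7 motifs searched. They were AGGTCA, the core site of nuclear receptors such as the PPARs, AAGGTCA, which contains it, the E-box CACGTG, the cyclic AMP response element TGACGTCA, the AP-1 site TGAGTCA, the CCAAT box and the TATA box, searched as TATAAA.
Acadm: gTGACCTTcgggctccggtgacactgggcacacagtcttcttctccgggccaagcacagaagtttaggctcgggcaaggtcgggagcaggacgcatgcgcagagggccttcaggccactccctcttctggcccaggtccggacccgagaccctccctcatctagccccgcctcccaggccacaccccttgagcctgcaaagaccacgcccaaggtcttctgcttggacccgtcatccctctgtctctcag
Acsl3: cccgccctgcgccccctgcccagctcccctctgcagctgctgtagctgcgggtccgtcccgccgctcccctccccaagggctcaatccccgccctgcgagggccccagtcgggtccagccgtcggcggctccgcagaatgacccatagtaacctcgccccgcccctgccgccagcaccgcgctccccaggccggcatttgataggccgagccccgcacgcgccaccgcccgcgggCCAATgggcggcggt
Mlycd: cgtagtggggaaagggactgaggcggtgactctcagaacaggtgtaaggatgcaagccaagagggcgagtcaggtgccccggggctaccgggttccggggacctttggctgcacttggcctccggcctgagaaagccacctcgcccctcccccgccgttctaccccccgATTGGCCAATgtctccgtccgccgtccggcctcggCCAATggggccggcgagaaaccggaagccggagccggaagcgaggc
Ucp2: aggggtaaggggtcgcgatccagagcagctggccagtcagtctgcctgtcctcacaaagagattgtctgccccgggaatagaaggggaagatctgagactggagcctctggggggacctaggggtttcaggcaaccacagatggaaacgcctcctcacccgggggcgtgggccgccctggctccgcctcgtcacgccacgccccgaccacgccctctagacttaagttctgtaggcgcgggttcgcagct
Acadm, the medium-chain acyl-CoA dehydrogenase, holds AAGGTCA on the opposite strand, which begins 249 bases before the start. Acsl3 holds 1 CCAAT, 15 bases before the start, and Mlycd holds 3, of which a pair on opposite strands lies side by side. Ucp2 holds none of the 7. Among the 31 genes with a promoter entry, AGGTCA was in 6 (19.4%; Acadm, Acadvl, Cd36, Cpt1a, Pparg and Ucp3), against 14% of 32851 windows of that length. CCAAT was in 13 (41.9%, against 33.8%), AAGGTCA in 1 (3.23%, against 4.08%), CACGTG in 1 (3.23%, against 6.02%) and TATAAA in 2 (6.45%, against 12.4%). TGACGTCA and TGAGTCA were in 0 of the 31, against 1.55% and 4.46% of all windows. Lpl, Fabp4, Cpt1b, Crat and Acaa2 were without an entry. A match is a description of the letters only.

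The first comparison, T3 against T0, asks what changed with the isolation. Of the 36 genes 15 fell, 6 rose and 15 did not pass the test (edgeR quasi-likelihood F test, Benjamini-Hochberg adjusted p under 0.05 over 31999 genes). They were called in 58.3% of cases, against 37.9% of all genes tested, of which 15% were called higher and 22.9% lower. Their median log2 fold change was -0.46, against 0.05 for all genes. The number that rose, 6 of 36, is near the background of 15%. All genes tested include some at far lower levels than any of the 36, and no share here or below was matched for level. Of the 10 enzymes of the matrix 7 fell and 1 rose, with a median of -1.07, and the other 8 falls were spread over 6 further roles. In each of the 15 genes that fell every T3 replicate was below every T0 replicate. In 5 of the 6 that rose every T3 replicate was above, with Fabp4 the exception. The share of all called genes without overlap was not worked out, so these counts describe the replicates only. Without the 12 genes that overlap another exon, 11 of 24 fell and 5 rose.

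**Figure D1:**
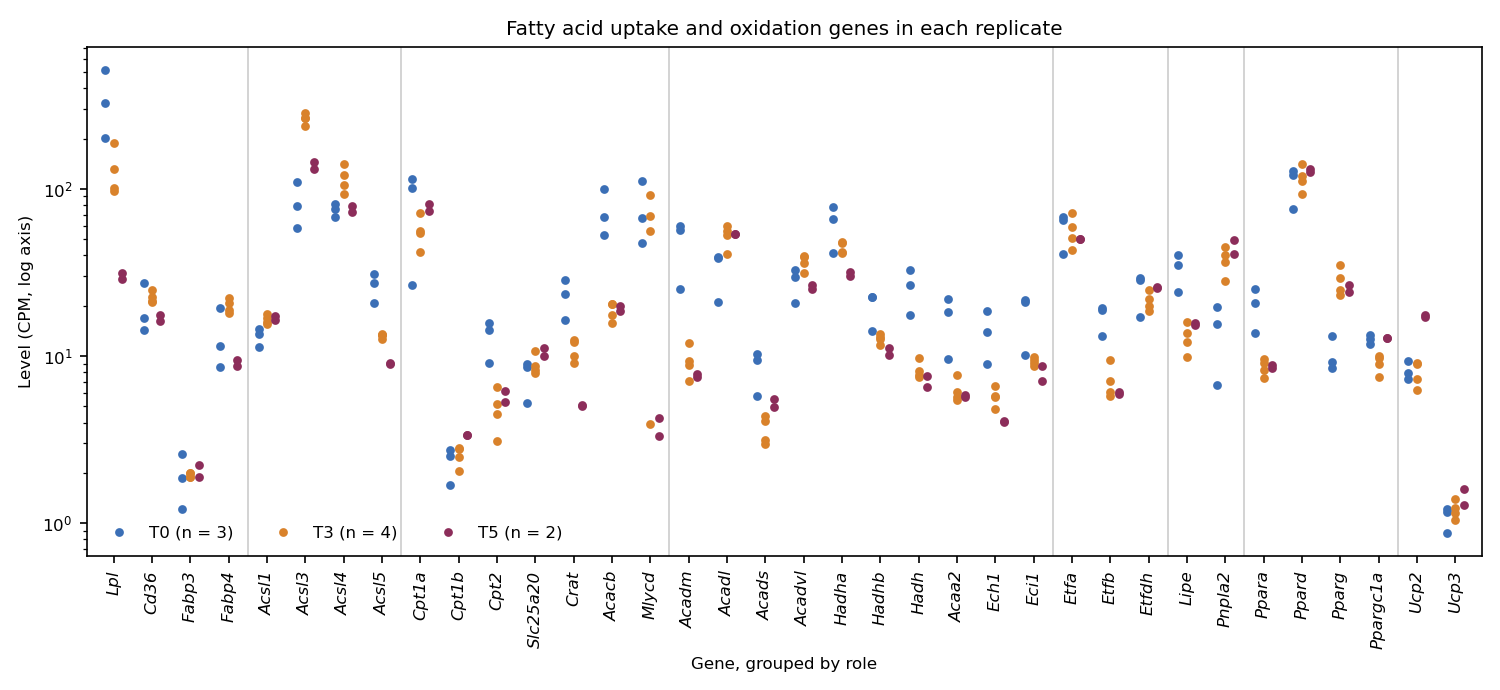
Level of each of the 36 genes in each replicate, in CPM on a log axis, with T0 (n = 3) in blue, T3 (n = 4) in orange and T5 (n = 2) in purple, and vertical lines between the roles. Lpl falls from 201 to 513 CPM in T0 to 28.7 and 31.2 in T5, and 1 T3 replicate of Mlycd lies with the T5 replicates, at 3.9 CPM.

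At the cell surface, Lpl was the member with the highest level per kilobase of exon in T0, at 33.1 ± 15 CPM per kb (SD, n = 3). Its level was 513, 327 and 201 CPM in T0, 131, 101, 97.7 and 188 in T3 and 28.7 and 31.2 in T5. The groups did not overlap, and each lay below the one before. From T0 to T3 Lpl fell by 1.42 on the log2 scale (SE 0.27, edgeR adjusted p = 0.000168). Lpl lies at chr8:68880491-68907448 (GRCm38). Fabp4, a fatty acid carrier abundant in adipocytes and capillary endothelium, was at 8.61, 11.5 and 19.5 CPM in T0 and at 18.8, 22.2, 18.2 and 20.8 in T3. T0 replicate 3 lay within the T3 range, and the rise of 0.60 (SE 0.24) was just past the threshold, at an edgeR adjusted p of 0.0499. The call was lost in 9 of 17 alternative settings. Cd36, the fatty acid translocase, and Fabp3, the carrier of heart and muscle, did not pass the test. Their log2 fold changes were 0.19 (95% interval -0.26 to 0.65) and 0.05 (-0.48 to 0.58).

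Endothelial cells are a known source of Fabp4 and Cd36. The 15 endothelial markers summed to 291 to 355 CPM in T0, against 517 to 619 for T3 and 319 to 320 for T5. Of the 15, 6 rose from T0 to T3 and 0 fell in edgeR (8 and 0 at an unadjusted p under 0.05, 7 and 0 in DESeq2), and none stood at 0 in any replicate. The sum was thus highest in the group in which Fabp4 was highest, whereas Lpl fell from T0 to T3, and the part of these markers in the results was not tested. The 10 adipocyte markers summed to 13.7 to 26.3 CPM in T0, against 9.31 to 11.8 for T3 and 12.1 to 12.9 for T5. Of them Adipoq was at no more than 2.28 CPM and Plin1 at no more than 1.16 CPM in any replicate. Thrsp, singled out after its values were seen, went from 5.26 to 20 CPM in T0 to 0.818 to 1.72 in T3, and without it the sum of the 9 others was 5.5 to 8.41 CPM in T0, against 8.49 to 10.6 for T3 and 10.2 to 10.9 for T5. In the test 1 of the 10 fell (Thrsp) and 1 rose (Adipoq, by 1.04, edgeR adjusted p = 0.0152). Myofibres, which hold large amounts of the oxidation enzymes, were followed with 16 markers, of which 12 rose from T0 to T3 and 2 fell. These summed to 186 to 217 CPM in T0, against 211 to 282 for T3 and 188 to 192 for T5. The 8 pericyte and smooth muscle markers summed to 361 to 424 CPM in T0, against 537 to 667 for T3 and 446 to 471 for T5, with 2 higher and 3 lower from T0 to T3. Des, singled out after its values were seen, was at 164 to 246 CPM in T0, against 419 to 536 for T3 and 314 to 347 for T5. The higher sum in T3 thus rests on Des. Of 10 macrophage markers 3 rose and 0 fell in edgeR, in DESeq2 and at an unadjusted p under 0.05, and their sum was 25.4 to 53.9 CPM in T0, against 40.2 to 61.1 for T3 and 43.3 to 51.5 for T5. Of 10 fibro-adipogenic markers 3 rose and 1 fell, with sums of 126 to 192, 116 to 177 and 113 to 115 CPM in the 3 groups. The 3 that rose were highest in T3 replicate 3, and their T0 and T3 levels overlapped. Dpt, singled out after its values were seen, held most of the T0 sum. It was at 81.5 to 164 CPM in T0, against 66.1 to 91.3 for T3 and 34.9 to 37.6 for T5. Col1a1 went the other way, from 5.04 to 9.47 CPM in T0 to 34.3 to 36 in T5. The sums therefore do not show how the other markers moved. The part of these cells in the results was not tested.

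Of the long-chain acyl-CoA synthetases, Acsl3, which serves lipid droplet growth at the endoplasmic reticulum, rose most of all 36 genes. It was at 110, 78.9 and 58.4 CPM in T0, 285, 239, 267 and 265 in T3 and 145 and 132 in T5. Every T3 replicate lay above every T5 replicate, and these above T0. The rise from T0 to T3 was 1.68 (SE 0.23, edgeR adjusted p = 2.63e-06). Acsl4, which prefers polyunsaturated fatty acids such as arachidonate, was at 80.9, 75.9 and 68.2 CPM in T0 and 106, 140, 93.4 and 121 in T3, and rose by 0.62 (SE 0.20, edgeR adjusted p = 0.0176). Its call was lost without T0 replicate 2 (0.62, edgeR adjusted p = 0.0617) and without T3 replicate 2 (0.51, edgeR adjusted p = 0.0822). In T5 it was back within the T0 range, at 78.6 and 73 CPM. Acsl5, a synthetase of mitochondria and endoplasmic reticulum, fell by 1.00 (SE 0.19, edgeR adjusted p = 0.000214), from 31.1, 27.2 and 20.7 CPM to 13.3, 13.5, 12.6 and 13.3, and was at 9.01 and 9.13 in T5. Acsl1 did not pass the test, with a log2 fold change of 0.33 (95% interval -0.06 to 0.73).

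The make-up of the family moved with these changes. Per kilobase of exon, Acsl3 made up 42.8 to 52.5% of the 4 synthetases in T0, against 64.5 to 74% for T3 and 64.2 to 64.9% for T5. Acsl5 held 13.3 to 14.3% in T0, but 3.07 to 3.26% and 3.61 to 3.96% in the later groups. The PPAR receptors shifted likewise: Ppara had 19.8 to 24.8% of the family in T0, but 6.63 to 9.17% and 7.92 to 8.17% in T3 and T5, while Pparg had 10.8 to 24.4%, 29.1 to 44.9% and 29.6 to 32.1% in the 3 groups. Ppard was the most abundant receptor per kilobase in every replicate, at 46.9 to 65.3%. By contrast Cpt1a held 87.4 to 94.9% of Cpt1a and Cpt1b together in every replicate.

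**Figure D2:**
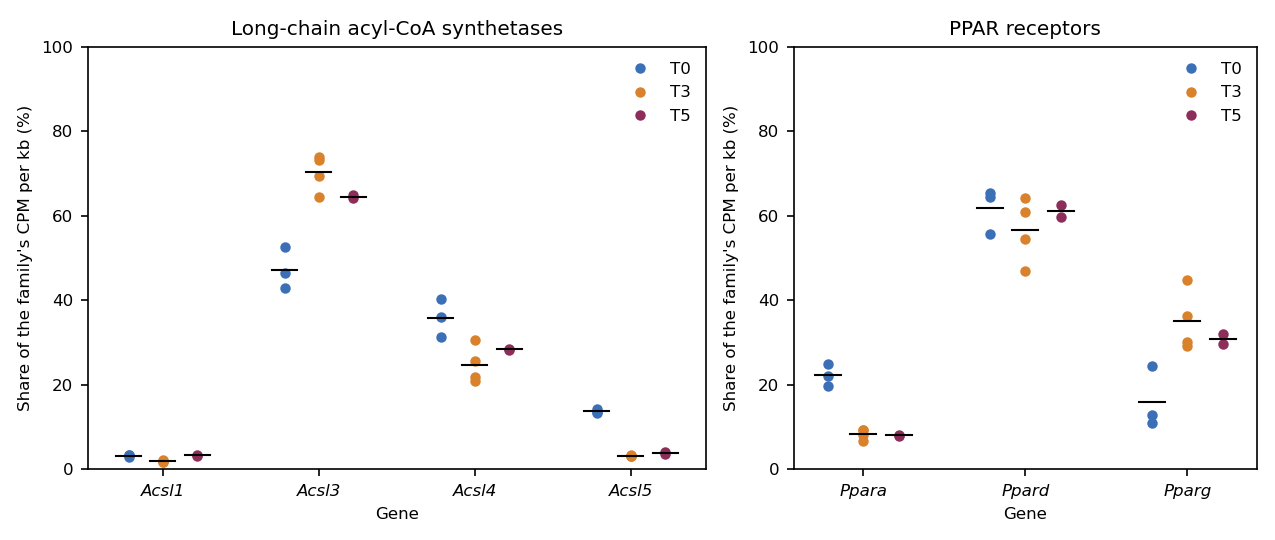
Share of each gene in the summed CPM per kb of its family, in percent, for the 4 long-chain acyl-CoA synthetases (left) and the 3 PPAR receptors (right); points are replicates of T0 (n = 3), T3 (n = 4) and T5 (n = 2), and bars the group mean. Acsl3 lies at 42.8 to 52.5% in T0 and at 64.2% or more in T3 and T5, and Ppara at 19.8% or more in T0 and at 9.17% or less afterwards.

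In the carnitine shuttle and its control, 3 of 7 genes fell and 0 rose in edgeR, as they did in DESeq2 and at an unadjusted p under 0.05. Among all genes tested 22.9% were called lower and 15% higher, and for 7 genes these counts are not far from those shares. Cpt2, the inner-membrane carnitine palmitoyltransferase, was at 15.8, 14.4 and 9.02 CPM in T0, 4.47, 6.54, 5.15 and 3.12 in T3 and 5.3 and 6.15 in T5. It fell by 1.44 (SE 0.25, edgeR adjusted p = 4.57e-05). Crat, the carnitine acetyltransferase that exports surplus acetyl units, went from 28.6, 23.4 and 16.5 CPM to 10, 12.4, 9.08 and 12.2, a fall of 1.06 (SE 0.21, edgeR adjusted p = 0.000289). Acacb makes the malonyl-CoA that inhibits Cpt1, and it fell by 1.98 (SE 0.22, edgeR adjusted p = 1.5e-07). Its levels were 99.6, 68.2 and 53 CPM in T0, 20.4, 15.8, 20.6 and 17.6 in T3 and 18.5 and 20 in T5, so that T3 and T5 overlapped each other and both lay below T0.

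Cpt1a, the rate-controlling outer-membrane transferase, was at 115, 101 and 26.5 CPM in T0, 42, 71.6, 56.3 and 54.2 in T3 and 73.9 and 81.4 in T5. T0 replicate 3 lay below all the others, and Cpt1a did not pass the test, at -0.53 (SE 0.31, edgeR adjusted p = 0.214). Without that replicate it fell by 0.94 (edgeR adjusted p = 0.000551), and the number of genes lower in T3 went from 15 to 19, also with Hadha, Etfdh and Ppargc1a. Cd36 was then higher in T3 by 0.52 (edgeR adjusted p = 0.00723). Cpt1b, the muscle form, was low, at 1.69 to 3.38 CPM over all replicates, and it and the carrier Slc25a20 did not pass the test (0.14, 95% interval -0.35 to 0.62, and 0.22, 95% interval -0.23 to 0.68).

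Within the matrix, Acadm fell furthest of the 36 genes. It was at 56.7, 59.6 and 25.3 CPM in T0, 7.12, 12, 8.82 and 9.35 in T3 and 7.78 and 7.44 in T5. The lowest T0 replicate still had over 2 times the CPM of the highest T3 replicate, and T5 lay within the T3 range. The change from T0 to T3 was -2.34 (SE 0.26, edgeR adjusted p = 1.39e-07). Acads, the short-chain dehydrogenase, fell by 1.22 (SE 0.23), from 9.48, 10.3 and 5.76 CPM to 2.98, 4.1, 4.36 and 3.16. Acadl, the long-chain dehydrogenase, rose instead: it was at 39.2, 38.4 and 20.9 CPM in T0, 41, 53.1, 56.2 and 60.1 in T3 and 54 and 53.6 in T5. The rise was 0.68 (SE 0.23, edgeR adjusted p = 0.0197), and T3 replicate 1 lay just above the highest T0 replicate. The call was lost without T3 replicate 4 (0.61, edgeR adjusted p = 0.0645). Acadvl, the very-long-chain dehydrogenase of the inner membrane, did not pass the test, at 0.40 (95% interval -0.02 to 0.82). The 4 acyl-CoA dehydrogenases, which differ in the chain length they take, thus included 2 that fell, 1 that rose and 1 that did not pass the test.

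Of the 6 genes of the later steps of the cycle 5 fell, beside 22.9% lower among all genes tested, and Hadha did not pass the test. Hadh, the 3-hydroxyacyl-CoA dehydrogenase for shorter chains, was at 32.6, 26.6 and 17.6 CPM in T0, 7.69, 9.68, 7.45 and 8.14 in T3 and 7.58 and 6.56 in T5, a fall from T0 to T3 of 1.64 (SE 0.22, edgeR adjusted p = 1.93e-06). Acaa2, the matrix thiolase, fell by 1.41 (SE 0.24), from 21.8, 18.4 and 9.63 CPM to 5.47, 7.68, 6.12 and 5.67. The auxiliary isomerases Ech1 and Eci1, which handle double bonds of unsaturated chains, fell as well. Ech1 went from 18.5, 14 and 8.97 CPM to 4.8, 6.57, 5.78 and 5.71, by 1.27 (SE 0.23). Eci1 went from 21.1, 21.6 and 10.2 CPM to 9.03, 9.92, 8.77 and 9.41, by 0.92 (SE 0.23). In both the T3 replicates lay below the lowest T0 replicate, which was replicate 3. Of the trifunctional protein, Hadhb (β subunit) fell by 0.64 (SE 0.20, edgeR adjusted p = 0.0154), from 22.6, 22.6 and 14.2 CPM to 11.6, 13.5, 12.7 and 13, and lost its call in 3 of 17 settings. Hadha (α subunit), a neighbour of Hadhb on chromosome 5, was at -0.46 (SE 0.21, edgeR adjusted p = 0.0926).

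Electrons from the dehydrogenases pass through the flavoprotein of Etfa and Etfb to Etfdh. The exons of Etfb share 617 bases with those of Gm45233 on the same strand, which had 7335 counts against 6680 for Etfb. With that uncertainty, Etfb fell by 1.27 (SE 0.22, edgeR adjusted p = 5.33e-05), from 19.5, 18.8 and 13.1 CPM to 5.8, 9.52, 6.11 and 7.07. Its partner subunit Etfa was at 67.9, 64.8 and 40.5 CPM in T0 and 50.7, 59.5, 43.3 and 72.1 in T3, and did not pass the test (-0.03, 95% interval -0.49 to 0.43), nor did Etfdh (-0.22, 95% interval -0.66 to 0.22).

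The 2 lipases of stored fat went opposite ways. Pnpla2, adipose triglyceride lipase, which takes the first fatty acid off triglyceride, was at 19.6, 15.6 and 6.7 CPM in T0, 28.2, 44.7, 40 and 36.5 in T3 and 41 and 49.5 in T5. It rose by 1.42 (SE 0.28, edgeR adjusted p = 0.00021), with no overlap between T0 and the other groups. Lipe, hormone-sensitive lipase, which acts on diglyceride, went from 40, 34.8 and 24 CPM in T0 to 9.85, 13.7, 16 and 12.2 in T3, a fall of 1.35 (SE 0.22, edgeR adjusted p = 2.2e-05), and was at 15.3 and 15.8 in T5. Its exons share 918 bases with those of the antisense gene 4732471J01Rik, which had 36251 counts against 13928 for Lipe. The fall of Lipe is therefore uncertain.

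Among the regulators, Pparg, best known for adipocyte differentiation, rose by 1.45 (SE 0.22, edgeR adjusted p = 1.21e-05). It was at 8.46, 9.25 and 13.1 CPM in T0, 35, 24.8, 23.1 and 29.2 in T3 and 26.7 and 24.3 in T5. Ppara, the receptor best known for driving fatty acid oxidation in liver, fell by 1.21 (SE 0.22, edgeR adjusted p = 7.09e-05), from 25.3, 20.7 and 13.8 CPM to 8.29, 7.36, 9.14 and 9.58, with 8.82 and 8.47 in T5. Ppard ran from 76.1 to 140 CPM over all replicates and did not pass the test (0.10, 95% interval -0.35 to 0.55). The coactivator Ppargc1a was at 13.3, 11.8 and 12.7 CPM in T0 and 9.72, 8.96, 10 and 7.52 in T3, with an edgeR adjusted p of 0.0578. Of the uncoupling proteins, Ucp2 and Ucp3 did not pass the test. Ucp3 was the lowest of the 36 per kilobase in each group, at 0.347 ± 0.0586 (SD, n = 3), 0.386 ± 0.0471 (SD, n = 4) and 0.462 ± 0.0728 CPM per kb (SD, n = 2).

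**Figure D3:**
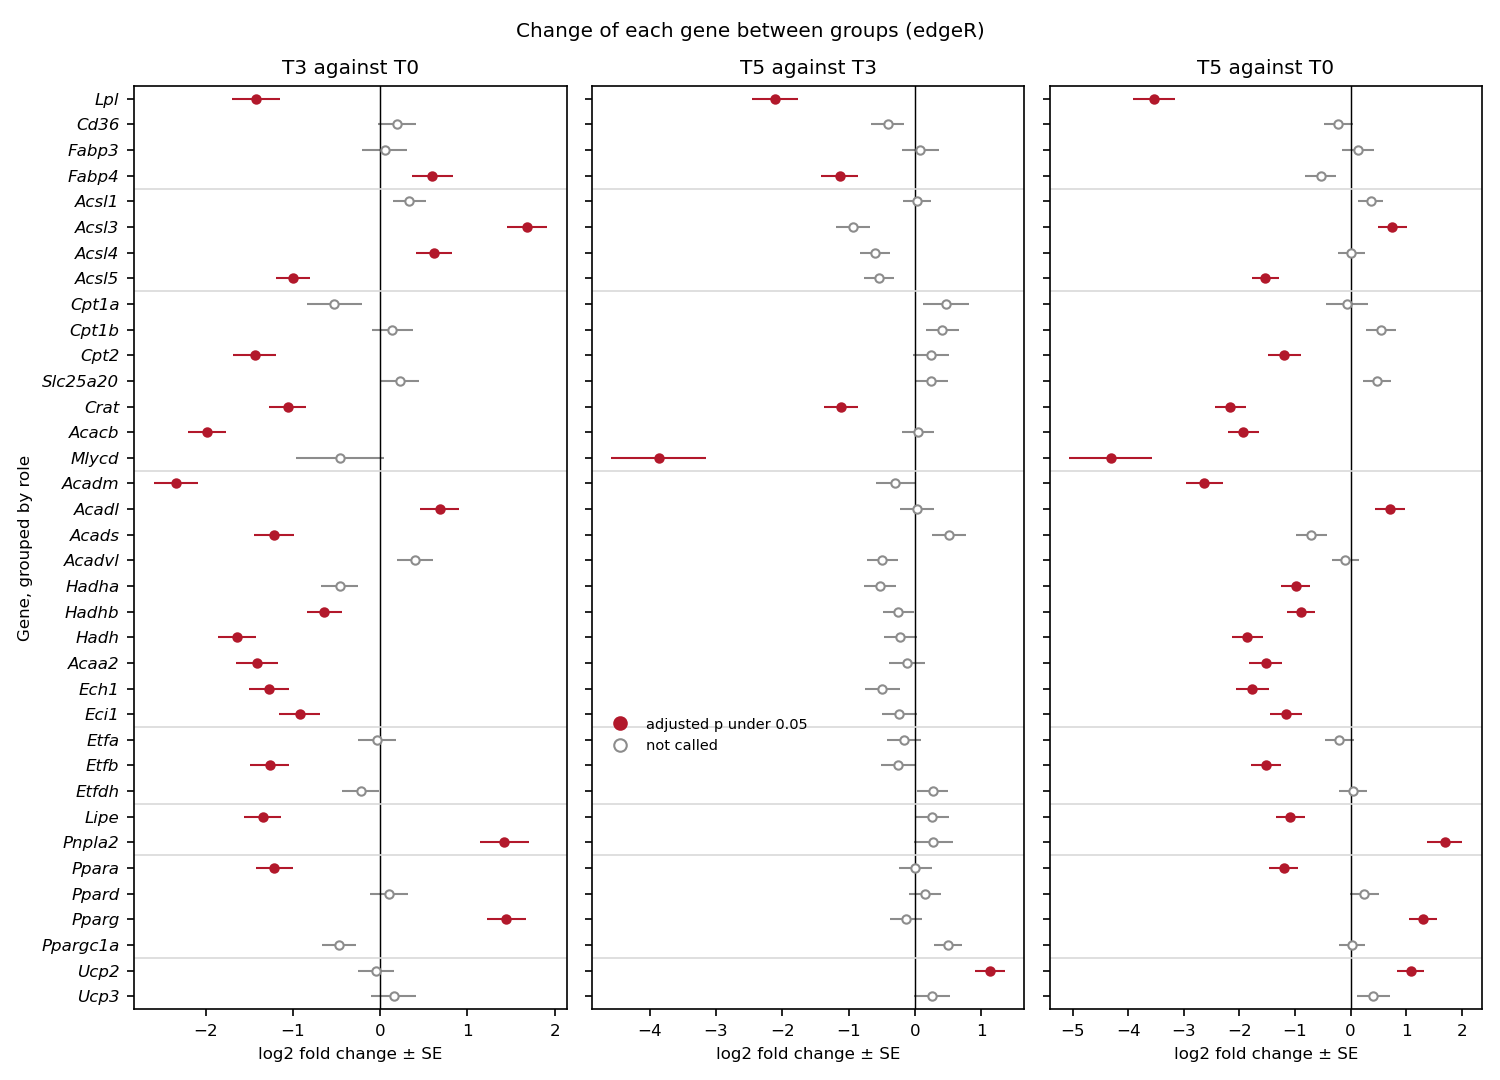
Log2 fold change of each of the 36 genes with its standard error, in T3 against T0, T5 against T3 and T5 against T0; filled red points have an edgeR adjusted p under 0.05 and open grey points do not. Most filled points of the panels against T0 lie to the left of 0, and the second panel has 5 filled points: Lpl, Fabp4, Crat, Mlycd and Ucp2.

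The added 2 h are addressed by setting T5 against T3. Of the 36 genes 4 fell, 1 rose and 31 did not pass the test. That is 13.9% called, against 2.17% of all genes tested, of which 1.28% were called higher and 0.888% lower. The median of the 36 was -0.13, against 0.05 for all genes. The genes that fell were Lpl, Fabp4, Crat and Mlycd, and Ucp2 rose. None of the 10 matrix enzymes, 4 synthetases or 4 regulators was called by edgeR. At an unadjusted p under 0.05, 2 matrix enzymes and 3 synthetases were lower and 1 regulator higher, and DESeq2 called 1 synthetase lower and 0 of the others. With 2 T5 replicates these counts are sensitive to single libraries: without T5 replicate A or B 2 genes were called lower and 0 higher, without T3 replicate 2 or 4 2 were called lower, and without T0 replicate 3 9 were.

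Lpl fell by 2.11 (SE 0.35, edgeR adjusted p = 0.000827), from 97.7 to 188 CPM in T3 to 28.7 and 31.2 in T5, and was called in all 16 alternative settings, in which the change lay between -2.23 and -1.88. Against T0 its fall was 3.54 (SE 0.38), an 11.6-fold lower level. The 4 T5 libraries taken singly had 25.7, 33.4, 39.5 and 21.2 CPM, all below every T3 replicate. Fabp4 fell from 18.2 to 22.2 CPM in T3 to 8.73 and 9.52 in T5, by 1.13 (SE 0.28, edgeR adjusted p = 0.029). The endothelial marker sum was 517 to 619 CPM in T3 and 319 to 320 in T5, and 5 of the 15 markers fell while 0 rose in edgeR (9 and 0 at an unadjusted p under 0.05, 5 and 0 in DESeq2). The part of these markers in the falls of Lpl and Fabp4 was not tested. The Fabp4 call was lost in 7 of 16 settings, among them those without T3 replicate 1, 2 or 4 (edgeR adjusted p = 0.05, 0.0735 and 0.0751) and without T5 replicate A or B (0.412 and 0.318). In those 5 settings the log2 fold change lay between -1.20 and -1.07.

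Mlycd encodes malonyl-CoA decarboxylase, which removes the inhibitor of Cpt1 that Acacb makes. It was at 112, 47.6 and 66.5 CPM in T0, 68.4, 3.9, 55.8 and 91.6 in T3 and 3.32 and 4.24 in T5. The groups T3 and T5 overlapped, because T3 replicate 2 had a level between the T5 replicates. The fall from T3 to T5 was 3.86 (SE 0.72, edgeR adjusted p = 0.00303), a 14.6-fold lower level, and without T3 replicate 2 it was 4.25 (edgeR adjusted p = 1.46e-07). From T0 to T3 Mlycd was at -0.46 (SE 0.51, edgeR adjusted p = 0.535), and at -0.07 without that replicate. Mlycd was the only one of the 36 genes in which T3 replicate 2 lay more than 2-fold below the other T3 replicates. None of 3 neighbours on chromosome 8 lay more than 2-fold below the other T3 replicates there: in T3 replicate 2 Hsbp1 was at 16.8 CPM against 12.9 to 16.1 in the other T3 replicates, Osgin1 at 25.9 against 31.2 to 40.8, and Mbtps1 at 113 against 95 to 105.

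Crat fell by a further 1.11 (SE 0.26, edgeR adjusted p = 0.0193), to 5.02 and 5.12 CPM. Its call was lost without T3 replicate 2 or 4 (edgeR adjusted p = 0.0604 and 0.0665) and without T5 replicate A or B (0.357 and 0.349), while the log2 fold change there was -1.04, -1.05, -1.10 and -1.12. Ucp2, an uncoupling protein family member of the inner membrane, was at 7.9, 7.25 and 9.33 CPM in T0, 6.25, 9.09, 8.93 and 7.25 in T3 and 17.5 and 17.1 in T5. T0 and T3 overlapped and both T5 replicates lay above them. The rise from T3 was 1.13 (SE 0.22, edgeR adjusted p = 0.00515), and the call was lost without T5 replicate A or B (edgeR adjusted p = 0.137 and 0.121), at log2 fold changes of 1.11 and 1.15. Acsl3 missed the threshold at -0.93 (SE 0.26, edgeR adjusted p = 0.0607), although each T5 replicate lay below each T3 replicate. It was called in 8 of the alternative settings, among them DESeq2 (-1.04, adjusted p = 0.00957).

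**Figure D4:**
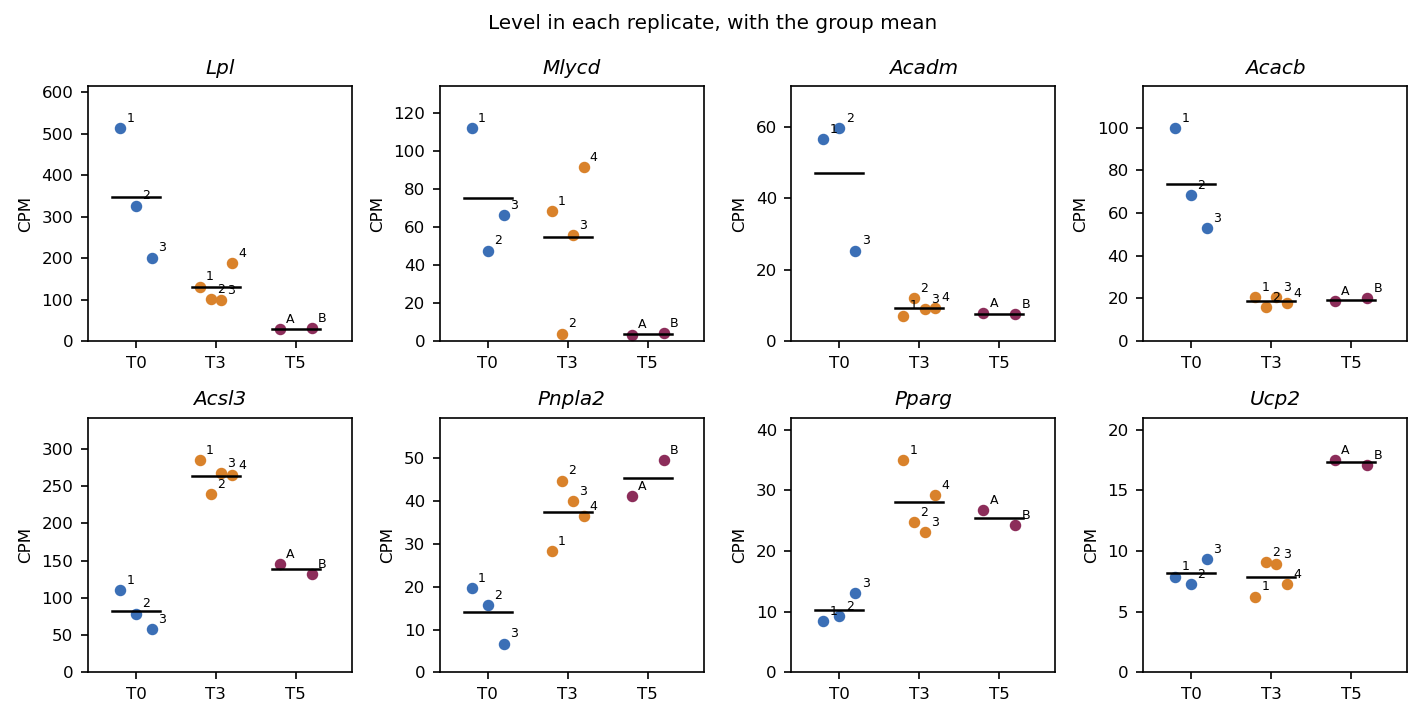
Level in CPM (linear axes from 0) of Lpl, Mlycd, Acadm, Acacb, Acsl3, Pnpla2, Pparg and Ucp2 in each replicate of T0 (n = 3), T3 (n = 4) and T5 (n = 2); numbers and letters name the replicates and bars are group means. Acadm and Acacb lie low in T3 and T5, Pnpla2 and Pparg lie high in both, Acsl3 is highest in T3, and Ucp2 is higher in T5 alone, at 17.1 and 17.5 CPM.

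Set against T0, T5 had 16 of the 36 genes lower, 5 higher and 15 not called, with a median of -0.38. The share called was 58.3%, against 35.7% of all genes, of which 13.2% were higher and 22.5% lower, with a median of 0.18. The number higher, 5 of 36, is near that background. The comparisons share samples, T0 with the first and T5 with the second, so their values are set side by side only. The 5 that were higher were Acsl3 (0.75), Acadl (0.71), Pnpla2 (1.70), Pparg (1.31) and Ucp2 (1.08). The lowest values were those of Mlycd (-4.32), Lpl (-3.54), Acadm (-2.63), Crat (-2.17) and Acacb (-1.93). In the matrix 7 of 10 fell, with Hadha at -0.99 (edgeR adjusted p = 0.00428) among them and Acads, at -0.70, not (edgeR adjusted p = 0.0522). Over the 3 comparisons 12 genes were lower in T3 and in T5 than in T0 with no call between T3 and T5. In the same way 4 were higher. Only 2.17% of all genes were called between T3 and T5, so no call there is the usual case. The number called higher fell to 3 without T5 replicate A or B.

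The order of the levels per kilobase of exon changed with this. In T0 the highest were Lpl, Etfa (31.5 ± 8.18 CPM per kb, SD, n = 3), Mlycd (25.4 ± 11.2) and Acsl3 (18.9 ± 5.92), and the ranges of these 4 overlapped with their neighbours. In T3 Acsl3 led at 60.6 ± 4.4 (SD, n = 4), above every replicate of Etfa (30.7 ± 6.75) and Acadl (26.2 ± 4.1), which overlapped each other. In T5 Acsl3 (31.9 ± 2.06, SD, n = 2), Etfa (27.4 ± 0.00617) and Acadl (26.8 ± 0.142) led.

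Beyond the 36, 90 other genes of lipid metabolism were examined in 6 lists. From T0 to T3 48 of the 90 fell and 14 rose, beside 22.9% lower and 15% higher among all genes, so that the number that rose is near the background. In the mitochondrial auxiliary list 12 of 14 fell and 1 rose, with a median of -1.18. Decr1, the dienoyl-CoA reductase for unsaturated chains, was at -2.87, the short-chain hydratase Echs1 at -2.29, and Acad10, a dehydrogenase-like protein, at -2.03. In the peroxisomal list 12 of 16 fell and 1 rose (Amacr -2.55, Pecr -1.96, Abcd3 -1.95). Of the ketone body genes, Oxct1 was at -1.32 and Acat1 at -1.15. Of the 16 genes of uptake and activation 7 fell and 1 rose (Lmf1 -2.24, Slc27a1 -1.52, Cpt1c -1.42). The lipid droplet list was split, with 5 of 14 higher and 5 lower, and its 3 smallest p-values were falls: G0s2, an inhibitor of Pnpla2, at -3.06, Plin3 at -2.22 and the monoglyceride lipase Mgll at -2.20. Of 25 PPAR partners and AMPK genes 6 rose and 9 fell. Of the PGC-1 family coactivators, Pprc1 rose 5.66-fold, from 38.9 ± 9.22 CPM (SD, n = 3) to 220 ± 12.7 (SD, n = 4), and Ppargc1b was at -1.92 on the log2 scale. The AMPK subunit Prkag2 was at -2.12.

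**Figure D5:**
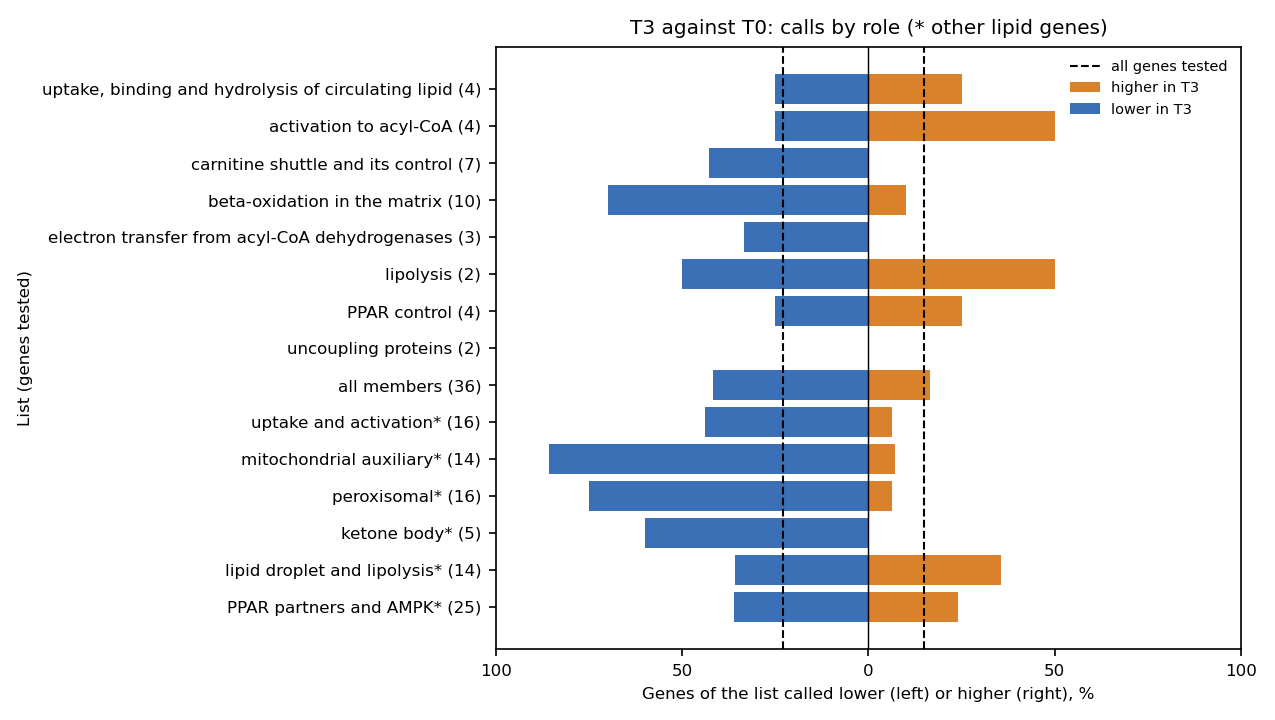
Percent of the genes of each role or list called lower (blue, left of 0) or higher (orange, right of 0) in T3 against T0, with the number of genes tested in brackets; asterisks mark the lists of other lipid genes, and dashed lines the 22.9% lower and 15% higher of all genes. Mitochondrial auxiliary, peroxisomal and matrix β-oxidation genes have the longest bars to the left.

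From T3 to T5 3 of the 90 rose and 0 fell in edgeR. At an unadjusted p under 0.05 these numbers were 10 and 9, and DESeq2 called 3 and 1. Among all genes 1.28% were called higher and 0.888% lower, so 0 of 90 lower is near the background. Acot2, a mitochondrial acyl-CoA thioesterase, was at 1.09, 0.891, 1.54 and 1.52 CPM in T3 and at 5.99 and 5.42 in T5, a rise of 2.18 (SE 0.27, adjusted p = 2.36e-05). Plin2, the coat protein of lipid droplets, went from 4.16, 3.63, 3.69 and 3.82 CPM to 13.2 and 14.6, a rise of 1.86 (SE 0.22, adjusted p = 1.27e-05). G0s2 rose by 1.18 (SE 0.28, adjusted p = 0.0244), from 1.4, 0.968, 1.16 and 1.07 CPM to 2.75 and 2.46, and stayed below its T0 range of 5.94 to 13.7. Against T0, T5 had 13 of the 90 higher and 46 lower, beside 13.2% higher and 22.5% lower among all genes, so that the number higher is near the background. Angptl4, the secreted inhibitor of Lpl, was at 5.22, 8.16 and 0.845 CPM in T0, 12.5, 39.4, 29.9 and 21.7 in T3 and 75.2 and 73.2 in T5. No groups overlapped, and T5 was higher than T0 by 3.98 (SE 0.53, edgeR adjusted p = 3.68e-06). From T3 to T5 Angptl4 was at 1.52 (SE 0.46, edgeR adjusted p = 0.0962) and was not called.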

How the data were processed

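The values are raw read counts for 48709 genes in 11 libraries, as deposited by the authors. Per the submitters' processing notes, STAR 2.5.0a, featureCounts 1.4.6-p3 (Subread), R 3.3.1 and DESeq2 1.12.3 were used with GRCm38; the annotation, strand setting and any filter are not given in the sources used here. Per the labels' protocols, RNA came from fixed cells (RecoverAll kit), libraries from the SMARTer Stranded Total RNA-Seq Pico kit, and reads were 65 bp, single-end. Columns were assigned to groups by name, and T0 and T3 replicates are named by column number, since nothing ties these numbers to the letters in the titles.

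GENCODE vM21 (GRCm38) had an entry for 48349 gene IDs and none for 360, and gives the gene coordinates. The test was the two-sided quasi-likelihood F test of edgeR 4.0.16 under R 4.3.3: TMM scaling, filterByExpr with the group, 3 groups in 1 fit, no covariate, Benjamini-Hochberg over the 31999 genes left. All 36 genes passed the filter. Standard errors are log2 fold changes over the root of F. CPM use TMM-scaled library sizes, and CPM per kb divides by the joint length of all annotated exons of a gene. Shares and orders between genes per kilobase therefore depend on the annotation. The 37 mitochondrially encoded genes stood at 0 throughout. The test was also run on counts simulated with few changed genes, evenly up and down. That setting is unlike these data and does not probe the scaling between groups. Alternatives were DESeq2 1.42.0, RLE and upper quartile factors, no filter, a mean CPM of at least 1, T5 libraries taken singly, 2 groups in the fit, a replicate block, and leaving out each replicate. Promoter sequences are RefSeq's (GRCm38.p6; 31 of 36 genes matched).

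The genes and lists were chosen with earlier results of these data known. Each of the 36 is accounted for by role. Of those called in T3 against T0 or T5 against T3 with a mean of at least 1 CPM, every sample's value is given. From each list of other genes at most the 3 with the smallest p per comparison were named. Beside those named, a gene that this rule takes is not reported here.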

Additional observations from a re-analysis of the deposited data

How the results depend on the processing

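Of the calls among the 36 genes, 17 of 21 held in all 17 alternatives for T3 against T0, 1 of 5 (Lpl) in all 16 for T5 against T3, and 14 of 21 in all 16 for T5 against T0. No called gene changed sign; in 19 cases a gene with no call on either side did. For T3 against T0 the number higher, 6 in the report, was 10 with upper quartile factors and 3 with the replicate block. The number higher or lower ran from 4 to 7 and from 14 to 19 when 1 replicate was left out. For T5 against T3 a fit of those 2 groups alone called 2 higher and 9 lower, and leaving out 1 replicate gave 0 to 1 higher and 2 to 9 lower. For T5 against T0 the number higher, 5 in the report, was 3 with DESeq2, 3 with RLE factors, 9 with upper quartile factors, 8 with a mean CPM of at least 1 and 8 with 2 groups in the fit; leaving out 1 replicate gave 3 to 5 higher and 11 to 17 lower. The cause of these shifts was not tested, except that a fit with an arm of 1 sample assumes that the sample varies like the other groups. Upper quartile factors move the median change (log2) over all genes tested to 0.32, 0.10 and 0.51 in the 3 comparisons, from 0.05, 0.05 and 0.18, and the share of calls that are lower from 60.4 to 44.7%, from 40.9 to 50.6% and from 62.9 to 44.1%. DESeq2 gave 67.3% lower for T5 against T3. The replicate block used column numbers and was run for T3 against T0 only, since T5 columns carry letters. Same-numbered replicates had deviations that correlated at -0.168, 0.21 and 0.22. With no values for differently numbered replicates beside them, these do not show whether the numbers pair replicates. With the block Mlycd was called at -1.40 (edgeR adjusted p = 5.46e-05), and Fabp4, Acsl4, Acadl and Hadhb were not called. The least abundant of the 36, Ucp3, lay at least 3.08 times above the mean level of 1746 genes of families silent in muscle. Its raw counts were 56, 51 and 93 in T0, and whether depth limits the test for such genes was not tested.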

Other observations

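Pdk4, the kinase that turns pyruvate dehydrogenase off and is a known target of PPARs, was singled out after its values were seen. It was at 41.1, 53.5 and 12.2 CPM in T0, 46.9, 100, 63.6 and 81.4 in T3 and 158 and 152 in T5. It rose from T0 to T3 by 1.04 (SE 0.34, edgeR adjusted p = 0.0164) although T3 replicate 1 lay within the T0 range. It was at 1.09 from T3 to T5 (SE 0.36, edgeR adjusted p = 0.141), with both T5 replicates above every T3 replicate. The lipid droplet genes Hilpda, which the rule takes for T5 against T0 (2.01, edgeR adjusted p = 5.79e-06), and Dgat2 and Abhd5, singled out after their values were seen, were higher in T3 than in T0 by 1.93, 1.37 and 0.89 (edgeR adjusted p = 1.57e-06, 1.41e-05 and 0.000997), and none of them was called between T3 and T5. Abhd5 activates Pnpla2 and Hilpda and G0s2 inhibit it, and Dgat2 makes triglyceride.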
